A study of Mus musculus with 6 samples.

Results

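The transcripts of 10 subunits of the mammalian cleavage and polyadenylation machinery were followed in growing mouse oocytes with and without PABPN1. They were chosen by gene symbol. Cpsf1, Cpsf2, Cpsf3, Cpsf4, Fip1l1 and Wdr33 encode the cleavage and polyadenylation specificity factor (CPSF), Cpsf4l encodes a paralog of CPSF4, and Nudt21, Cpsf6 and Cpsf7 encode cleavage factor I (CFI). All 10 were found among the 23235 gene symbols of the deposited table, and all 10 were among the 12523 rows that passed the filter for testing, a level above 1 FPKM in at least 1 sample (FPKM counts the fragments of a transcript relative to its length and to all mapped fragments). Oocytes came from WT and Pabpn1-null C57BL/6 mice, with 3 samples per genotype and 10 oocytes per sample. The Pabpn1-null mice were Pabpn1 fl/fl;Gdf9-Cre, so that Cre recombinase driven by the Gdf9 promoter deleted the floxed gene in oocytes from the primordial follicle onward, and the controls were littermates. The age at collection, the number of mice behind each sample and whether the WT littermates carried floxed alleles are not given in the sources used here, so p-values here reflect only how far these samples scatter. RNA was reverse transcribed from an oligo-dT primer by Smart-seq2, which captures a transcript through its poly(A) tail.

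In the nucleus, most mRNA precursors are cut downstream of the hexamer AAUAAA, and poly(A) polymerase then adds the tail on which PABPN1 assembles. CPSF1, WDR33, CPSF4 and FIP1L1 form the module that finds the hexamer, in which WDR33 and CPSF4 contact the RNA and FIP1L1 tethers the polymerase. CPSF3 is the endonuclease that makes the cut, and CPSF2 is its inactive relative and partner. CFI, built from NUDT21 with CPSF6 or CPSF7, binds UGUA motifs upstream of the cut and favors distal sites in many cell types.

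Deletion of Pabpn1 was seen in every sample. Its transcript was at 21.9, 33.4 and 21.8 FPKM in the WT samples and at 0.595, 0.878 and 1.37 FPKM after deletion. The mean was 3.68% of WT (log2 change -3.77 ± 0.23 SE, limma adjusted p = 1.44e-05). All 11 oocyte markers examined were above 1 FPKM in every sample, with a summed level of 14700 to 17000 FPKM in WT samples against 16500 to 18300 in Pabpn1-null oocytes. The 9 granulosa cell markers summed to 31.7 to 37.9 FPKM in WT samples against 31.1 to 43.6 in Pabpn1-null samples. Of these markers, 7 were above 1 FPKM in at least 1 sample and 5 in every sample. The 4 endothelial markers summed to 7.95 to 9.78 FPKM in WT and 9.15 to 12.1 in Pabpn1-null samples, with 2 of them above 1 FPKM in every sample and Cdh5 at 0 throughout. The 5 blood and immune markers summed to 1.97 to 3.71 and 1.08 to 2.65 FPKM, with Hbb-b1 and Hba-a1 at 0 throughout. The 6 theca and stromal markers, none above 1 FPKM in any sample, summed to 0.417 to 0.7 FPKM in WT and to 0.17 to 0.246 in Pabpn1-null samples, without overlap, and the part of these cells in the results was not tested. The steps between low values put the sequencing depth of the other 5 libraries at 1.31 to 1.66 times that of WT replicate 1. The total FPKM of Pabpn1-null oocytes was 87.0% of that of WT oocytes on average. It was 58.7% after each sample was multiplied by a factor estimated so that the deposited values give the group means in the study's own table of changed transcripts (1.0, 1.4167 and 1.3077 for WT, 0.8333 for each Pabpn1-null sample, termed table factors below). Whether these factors are the spike-in scaling of the study is not known, so the values with them are those of an alternative scaling. With these factors the median log2 change of all tested rows moved from 0.09 to -0.36, so directions are given on both scales. In bulk samples of this kind a change per cell and a change in the make-up of the oocytes collected cannot be told apart.

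The hexamer found near the annotated 3′ end differed among the transcripts of the subunits themselves. The last 50 bases of the longest annotated coding transcript with a 3′UTR (GENCODE vM1, mm9) were searched on the transcript strand for the hexamers AATAAA, then for ATTAAA, then for TATAAA, then for AGTAAA and last for AATATA, and the first of these found in that order was kept. The windows of 30 bases shown are from the hexamer-reading module and CFI, with the hexamer in capitals, written 5′ to 3′ as DNA. They are shown so that the hexamers of Cpsf4 and its paralog can be set beside those of the other subunits. Wdr33, whose window is not shown, had the most common of these hexamers.
Cpsf4: tctatgaggttgATTAAAaagcttgttttt
Cpsf4l: tttatactcgagAATATActgtgtgttctg
Cpsf1: ctacccattttgTATAAAacacaaagaaaa
Fip1l1: tttttgataatcAATAAAaatgatcttgtg
Nudt21: tttaagtttctcATTAAActctgaaaagtc
Cpsf6: tcttgtattgaaAATAAAaacaaagttttg
Cpsf7: atatttttaaatAATAAAtggggtgtgagc
In the same order, these windows lie at chr5:145942879-145942908 (plus strand), chr11:113559489-113559518 (minus), chr15:76426250-76426279 (minus), chr5:74994777-74994806 (plus), chr8:96543308-96543337 (minus), chr10:116781729-116781758 (minus) and chr19:10622186-10622215 (plus). The hexamers begin 19 to 29 bases before the annotated end. Over 19915 genes searched in the same way, AATAAA was the hexamer found in 61.0%, ATTAAA in 13.5%, TATAAA in 2.56% and AATATA in 1.14%, and 19.5% had none of the searched hexamers, as was the case for Cpsf2 and Cpsf3. The hexamers other than AATAAA and ATTAAA were added to the search after the ends had been seen, so their shares are only a description. A match is a property of the annotated end, and the end used in oocytes was not examined. Whether CPSF reads these matches was not tested.

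The levels of the 10 transcripts in WT oocytes spanned from 2.01 to 1232 FPKM, a scale that is corrected for transcript length. It is not corrected for capture through the poly(A) tail, so the order of genes is one of FPKM and may differ from that of molecules. Cpsf4l was the most abundant, at 1232 ± 107 FPKM (SD, n = 3), and ranked 65th, 74th and 68th of the tested rows in the 3 WT samples. Wdr33 (125 ± 22.7 FPKM), Nudt21 (99.3 ± 18.8) and Fip1l1 (78.4 ± 12.7) followed, and the ranges of neighbors among these 3 overlapped. Cpsf3 (24.3 ± 9.71 FPKM) and Cpsf4 (16.9 ± 1.31) came next and also overlapped each other, as did Cpsf2 (7.33 ± 0.957) and Cpsf6 (7.32 ± 1.02). Cpsf7 (3.85 ± 1.95 FPKM) and Cpsf1 (2.01 ± 0.324), the scaffold of the hexamer-reading module, were lowest and overlapped each other. In Pabpn1-null oocytes the order changed in 2 places, with Nudt21 (117 ± 6.60 FPKM) above Wdr33 (107 ± 3.49), whose ranges overlapped, and Cpsf2 (14.7 ± 1.31) above Cpsf4 (12.2 ± 0.861), whose ranges did not.

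**Figure D1:**
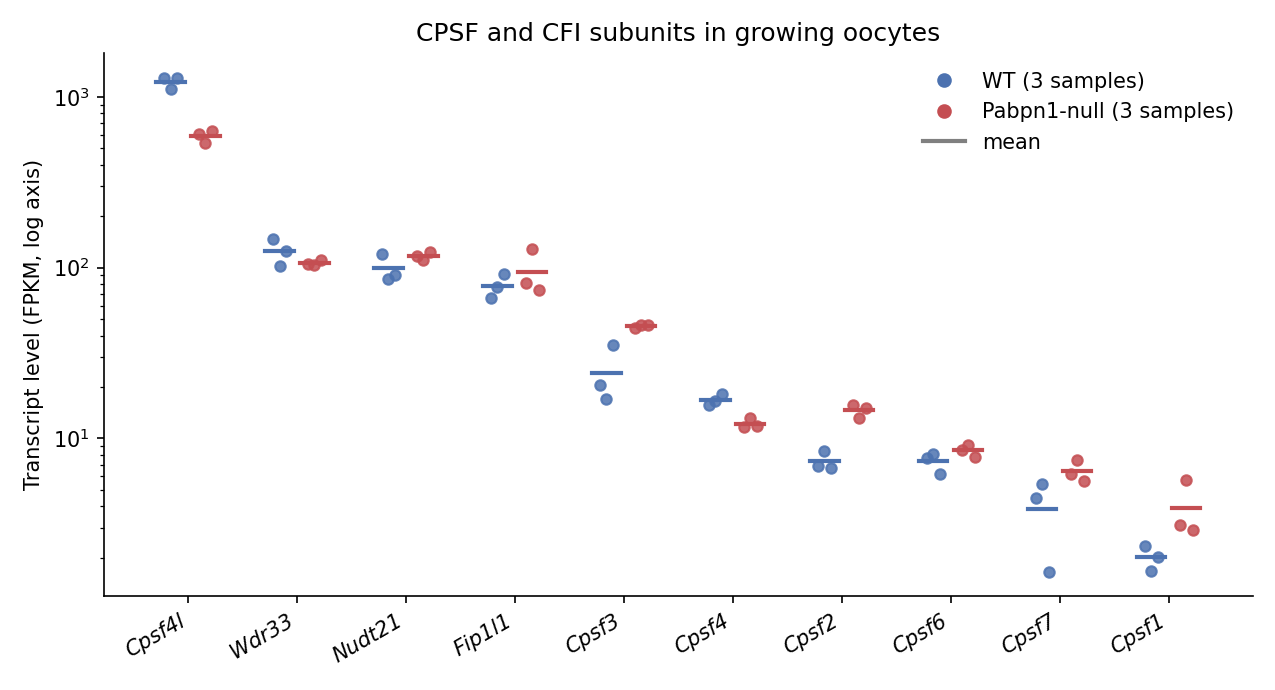
Transcript level (FPKM, log axis) of each CPSF and CFI subunit in the 3 WT (blue) and 3 Pabpn1-null (red) samples, with lines at the group means and genes ordered by WT level. Cpsf4l lies above all others in both genotypes and falls from 1232 to 592 FPKM, whereas Cpsf2 and Cpsf3 rise.

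At the level of single genes, 3 of the 10 transcripts rose and 2 fell in Pabpn1-null oocytes with a limma adjusted p under 0.05. Over all tested rows 27.9% were called higher and 20.2% lower, so the members' counts lie near this background. In numbers, 3491 rows were higher and 2535 lower as deposited, 4327 and 1778 at the same total FPKM, and 1176 and 4445 with the table factors. Without adjustment, 4 were higher and 2 lower by limma, and no share of all tested rows was computed at that threshold. For 6 of the 10 the samples of the genotypes did not overlap, 4 of them higher and 2 lower, against 58.0% of all tested rows (33.3% higher, 24.7% lower). The median log2 change of the members was 0.24 and that of all tested rows was 0.09. With the table factors 0 were higher and 3 lower with a limma adjusted p under 0.05, against 9.39% and 35.5% of all rows. In either direction the shares of all rows were 44.9% with the table factors and 48.1% as deposited. Without adjustment the members' counts with these factors were again 0 and 3, with no share of all rows computed. The median of the members with these factors was -0.305. The direction of the CPSF and CFI genes as a group therefore depended on the scaling, and the accounts below give each member on both scales.

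The endonuclease CPSF3 and its partner CPSF2 had higher transcript levels in Pabpn1-null oocytes as deposited. Both genes lie on the plus strand of chromosome 12 of mm9, Cpsf3 from 21292158 to 21320917 and Cpsf2 from 103214184 to 103244203. Cpsf2 was at 6.87, 8.43 and 6.70 FPKM in WT samples against 15.8, 13.2 and 15.1 in Pabpn1-null samples. All Pabpn1-null samples lay above all WT samples, and the mean was 200.5% of that of WT (log2 change 0.92 ± 0.17 SE, limma adjusted p = 0.00212). Cpsf3 was at 20.4, 17.1 and 35.3 FPKM in WT samples against 44.4, 46.1 and 45.9 in Pabpn1-null samples. WT replicate 3 was the highest WT sample and still lay below the Pabpn1-null samples, whose coefficient of variation was 2.09% against 40.0% in WT. The mean was 1.87-fold that of WT (log2 change 0.94 ± 0.23 SE, limma adjusted p = 0.00838). Both calls held when any 1 sample was left out (adjusted p up to 0.02 for Cpsf2 and 0.0404 for Cpsf3 from limma). With the table factors both remained above WT on average but did not pass (log2 changes 0.41 and 0.40, limma adjusted p = 0.194 and 0.249), and without the filter Cpsf3 did not pass (adjusted p = 0.0866).
The ratio of Cpsf3 to Cpsf2 within a sample was 2.97, 2.03 and 5.28 in WT and 2.81, 3.48 and 3.04 in Pabpn1-null oocytes. Such a ratio does not depend on a scaling factor per sample. The genotypes overlapped, with a log2 difference of -0.03 (two-sided exact permutation test, p = 0.9), and the sign turned without WT replicate 3 (0.34) or without Pabpn1-null replicate 1 (0.038). The pair together took 8.65 ± 2.18% of the summed FPKM of the 9 members other than Cpsf4l in WT and 14.8 ± 1.01% in Pabpn1-null oocytes (SD, n = 3), without overlap.

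Cpsf4l had the largest fall among the members, on all scales used. It lies on chromosome 11 from 113559486 to 113571331 on the minus strand of mm9. Its level was 1297, 1108 and 1290 FPKM in WT samples against 608, 535 and 633 in Pabpn1-null samples. The genotypes were well apart, and the coefficients of variation were 8.72% and 8.61%. The mean fell to 48.1% of WT (log2 change -1.06 ± 0.12 SE, limma adjusted p = 1.83e-04), and the log2 change was -1.61 with the table factors (limma adjusted p = 3.67e-05). Its rank among tested rows went from 65 to 74 in WT to 134 to 145 in Pabpn1-null samples. D11Wsu47e, which overlaps Cpsf4l by 1147 bases on the opposite strand but shares 0 exonic bases with it, was at 14.4 to 20.4 FPKM in WT samples against 25.7 to 34.3 in Pabpn1-null samples.
Cpsf4, whose protein reads the hexamer, was lower by a smaller amount. It was at 15.7, 16.6 and 18.3 FPKM in WT samples against 11.6, 13.2 and 11.7 in Pabpn1-null samples, without overlap. The mean was 72.2% of WT (log2 change -0.44 ± 0.16 SE, limma adjusted p = 0.0432). This call was lost without any 1 sample (limma adjusted p of 0.0519 to 0.153) and with all totals set equal (-0.25, adjusted p = 0.23), and was kept with the table factors (-0.96, adjusted p = 0.00564).
The coding sequences of the paralogs, of 810 and 843 bases, were 70.2% identical over 677 aligned bases. The longest run of bases that any of their annotated transcripts shared was 17, against a trimmed read length of 50. Cpsf4l made up 98.6 ± 0.146% of the summed FPKM of the paralogs in WT and 98.0 ± 0.322% in Pabpn1-null oocytes (SD, n = 3). The ratio of Cpsf4l to Cpsf4 was 82.6, 66.6 and 70.6 in WT and 52.3, 40.6 and 53.9 in Pabpn1-null samples. Every Pabpn1-null sample lay below every WT sample, with a log2 difference of -0.59 (two-sided exact permutation test, p = 0.1, which is the smallest that 3 against 3 allows, and 0.15 adjusted over 6 ratios). After quantile normalization, which is no factor per sample, the difference was -0.04.

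The rows whose profile over the 6 samples was most like that of Cpsf4l were Cks1b, Vps29, Mphosph6, Anapc10 and Ufm1. Their Pearson correlations with Cpsf4l on log2(FPKM + 1) were 0.9989 to 0.9997 over 6 samples, the highest of 7878 rows with a mean of at least 5 FPKM. The points share the genotype difference, and the value is a description of likeness. Mphosph6 was at 2509, 2276 and 2566 FPKM in WT samples against 1350, 1211 and 1421 in Pabpn1-null samples. The 5 rows were picked on the same 6 samples, so a shared order of samples and a similar fall follow from the choice. In all 5, as in Cpsf4l, WT replicate 2 was the lowest WT sample and Pabpn1-null replicate 2 the lowest Pabpn1-null sample. These samples also had the lowest total FPKM of their genotypes (676077 and 597103). The means of the 5 rows in Pabpn1-null oocytes were 52.0% to 59.0% of WT.

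Of the other members of the hexamer-reading module, Cpsf1 passed the test as deposited and Wdr33 and Fip1l1 did not. Wdr33, the WD40 subunit that contacts the hexamer, was at 148, 103 and 125 FPKM in WT samples against 105, 104 and 110 in Pabpn1-null samples. The genotypes overlapped, and the log2 change of -0.22 did not pass (95% interval -0.56 to 0.12, limma adjusted p = 0.259). It passed without WT replicate 2 (-0.35, limma adjusted p = 0.0492) and with the table factors (-0.77, adjusted p = 0.00277).
Fip1l1, which tethers poly(A) polymerase, was at 66.5, 76.9 and 91.7 FPKM in WT samples against 81.1, 128 and 74.1 in Pabpn1-null samples. Pabpn1-null replicate 2 stood above the other samples, and without it the log2 change went from 0.23 (95% interval -0.24 to 0.71, limma adjusted p = 0.378) to -0.004. With the table factors it was -0.32. Lnx1, which shares 626 exonic bases with Fip1l1 on the opposite strand, was at 1.35 to 2.64 FPKM over the 6 samples.
Cpsf1, the scaffold, was at 2.33, 1.68 and 2.02 FPKM in WT samples against 3.09, 5.67 and 2.91 in Pabpn1-null samples. The genotypes did not overlap, and Pabpn1-null replicate 2 was the highest sample, as it was for Fip1l1. The mean was 1.94-fold that of WT (log2 change 0.66 ± 0.24 SE, limma adjusted p = 0.0434). The call was lost without any 1 sample other than Pabpn1-null replicate 3 (limma adjusted p of 0.0661 to 0.132, with a log2 change of 0.42 without Pabpn1-null replicate 2), with the table factors (0.26, adjusted p = 0.433), after median-of-ratios scaling (0.61, 0.0553) or quantile normalization (0.50, 0.107), and without the filter (0.163). A transcript at this level changes less on the log2(FPKM + 1) scale than in FPKM. Adck5, which shares 8 exonic bases with Cpsf1 on the opposite strand, was at 1.46 to 2.64 FPKM in WT samples against 4.19 to 5.65 in Pabpn1-null samples.
Set against each other within a sample, these genes separated the genotypes in 2 further ratios. Wdr33 relative to the sum of Cpsf4 and Cpsf4l was at 0.113, 0.0913 and 0.0959 in WT and 0.170, 0.190 and 0.171 in Pabpn1-null samples, a log2 difference of 0.83. Cpsf4l made up 98.6% of that sum in WT and 98.0% in Pabpn1-null oocytes, so this ratio largely repeats the fall of Cpsf4l. After quantile normalization the log2 difference of this ratio was 0.567. Cpsf1 relative to Fip1l1 was at 0.0350, 0.0218 and 0.0220 in WT and 0.0380, 0.0443 and 0.0393 in Pabpn1-null samples, a log2 difference of 0.66. All Pabpn1-null samples were above all WT samples in both ratios (two-sided exact permutation test, p = 0.1 for each, the smallest possible, and 0.15 adjusted over 6 ratios). The 4 core genes of the module, Cpsf1, Wdr33, Cpsf4 and Fip1l1, summed to 223 ± 21.6 FPKM in WT samples against 217 ± 29.2 in Pabpn1-null oocytes (SD, n = 3), with overlap.

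**Figure D2:**
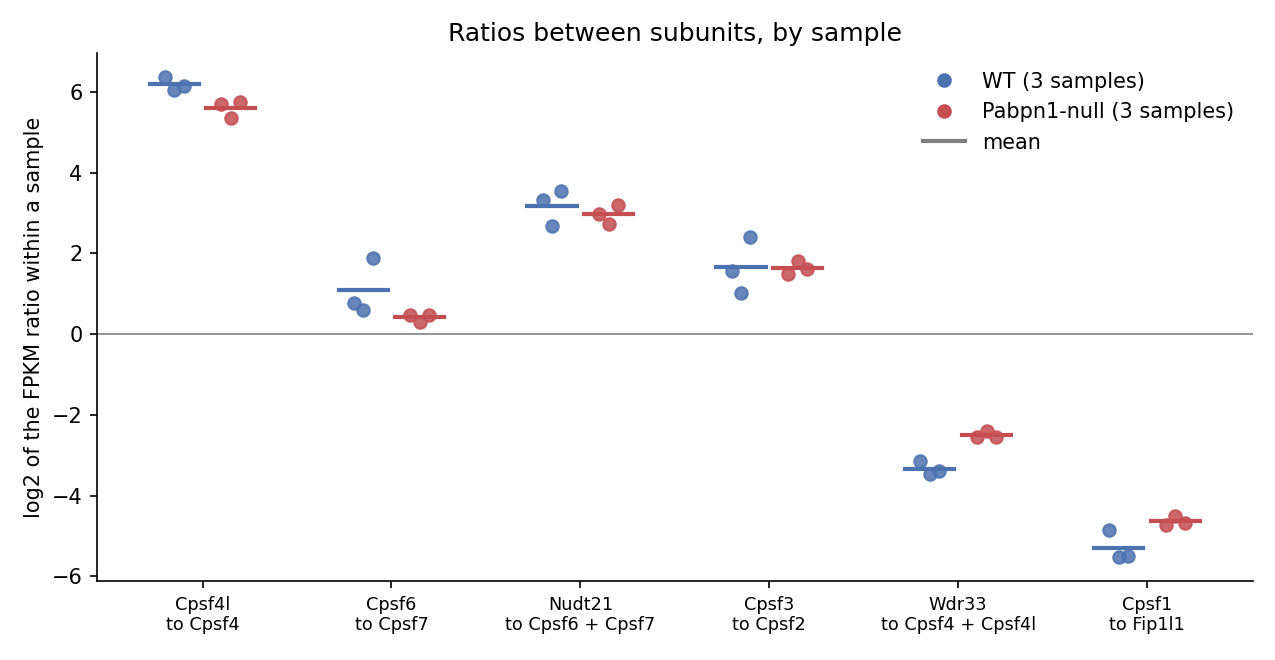
The log2 of 6 ratios between subunits within each sample, for 3 WT (blue) and 3 Pabpn1-null (red) samples, with lines at the group means. The genotypes separate in 4 of the ratios and overlap for Cpsf3 to Cpsf2 and for Nudt21 to Cpsf6 + Cpsf7. Cpsf4l to Cpsf4 and Wdr33 to Cpsf4 + Cpsf4l, which both separate, share the fall of Cpsf4l. Of all tested rows, 58.0% do not overlap between the genotypes, and no such share was computed for ratios.

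None of the 3 CFI genes passed the test in the fit as deposited, and 1 of them, Cpsf7, had an unadjusted p under 0.05 (0.0463). Nudt21, the RNA-binding small subunit, was at 121, 86.2 and 90.9 FPKM in WT samples against 116, 110.5 and 124 in Pabpn1-null samples. WT replicate 1 lay among the Pabpn1-null samples, and the log2 change was 0.25 (95% interval -0.10 to 0.59, limma adjusted p = 0.207). It passed without WT replicate 1 (0.40, limma adjusted p = 0.0499) and at the same total FPKM (0.445, adjusted p = 0.0205), and turned to -0.31 with the table factors (adjusted p = 0.145).
Cpsf6, the larger of the alternative large subunits, was at 7.69, 8.11 and 6.17 FPKM in WT samples against 8.54, 9.17 and 7.77 in Pabpn1-null samples, with overlap. Its log2 change of 0.19 (95% interval -0.21 to 0.59, limma adjusted p = 0.391) turned to -0.30 with the table factors.
Cpsf7, the other large subunit, was at 4.49, 5.40 and 1.66 FPKM in WT samples against 6.16, 7.42 and 5.63 in Pabpn1-null samples. WT replicate 3 was far below the other WT samples, and the genotypes did not overlap. The log2 change of 0.70 (95% interval 0.01 to 1.38) did not pass (limma adjusted p = 0.0853), passed without WT replicate 2 (0.95, adjusted p = 0.0446) and was 0.31 without WT replicate 3 (adjusted p = 0.197). With the table factors it was 0.24 (limma adjusted p = 0.572). Tmem216, which shares 169 exonic bases with Cpsf7 on the opposite strand, was at 20.2 to 27.4 FPKM in WT samples against 7.82 to 11.4 in Pabpn1-null samples, and strand use in the counting is not stated.
The balance within CFI was weighted to the small subunit in both genotypes. Nudt21 was at 9.92, 6.37 and 11.6 times the sum of Cpsf6 and Cpsf7 in WT and at 7.92, 6.66 and 9.23 times in Pabpn1-null samples. These values overlapped, with a log2 difference of -0.20 (two-sided exact permutation test, p = 0.5). Cpsf6 was at 1.71, 1.50 and 3.72 times Cpsf7 in WT and 1.38, 1.24 and 1.38 times in Pabpn1-null samples. The log2 difference of -0.67 (two-sided exact permutation test, p = 0.1, which is the smallest possible, and 0.15 adjusted over 6 ratios) was -0.27 without WT replicate 3.

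**Figure D3:**
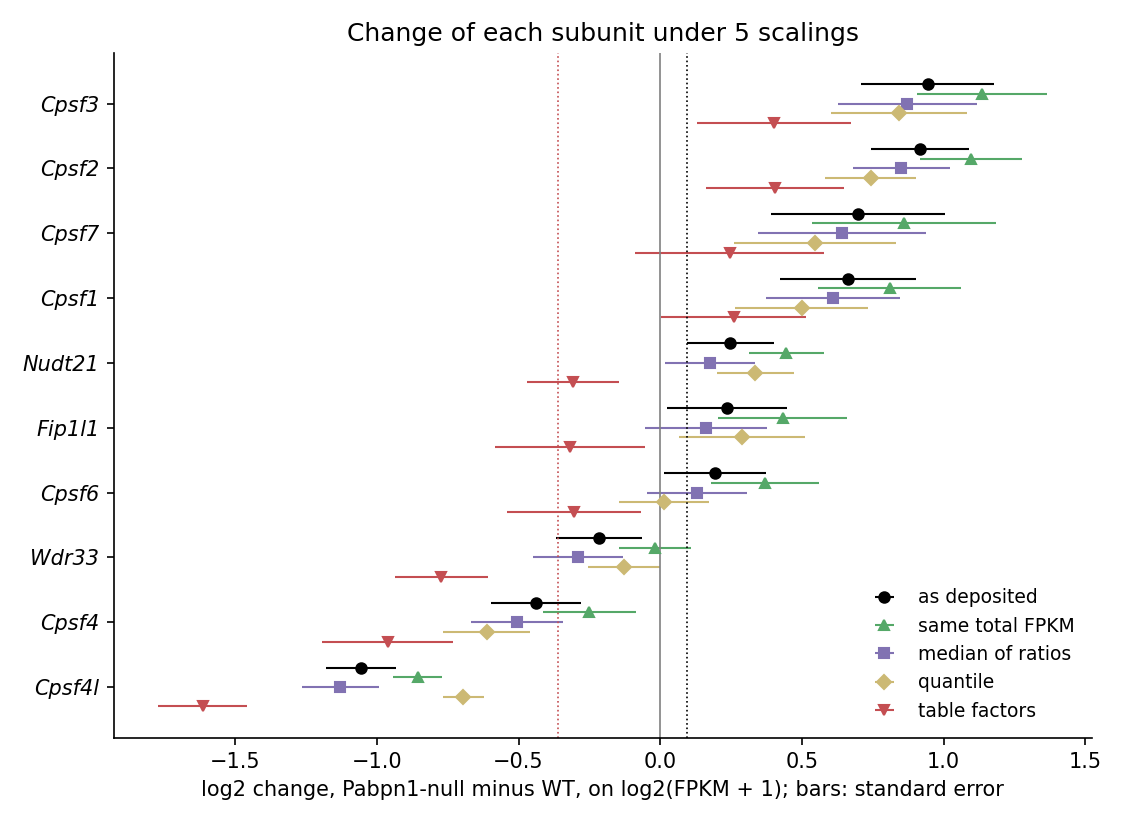
The log2 change of each subunit (Pabpn1-null minus WT on log2(FPKM + 1), bars are standard errors) as deposited and under 4 other scalings. The solid line is at 0 and the dotted lines are at the median of all tested rows, 0.09 as deposited (black) and -0.36 with the table factors (red). Cpsf4l, Cpsf4 and Wdr33 lie below 0 under all 5, with Wdr33 at -0.019 at the same total FPKM. Cpsf1, Cpsf2, Cpsf3 and Cpsf7 lie above 0 under all 5, whereas Nudt21, Fip1l1 and Cpsf6 change sign with the table factors.

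Around these subunits, 30 other genes of 3′ end formation were examined, of which 29 passed the filter. The exception was Papolb, at up to 0.111 FPKM. Of the 29, 9 rose and 7 fell, Pabpn1 among the latter, with a median log2 change of 0.09, beside 27.9% higher and 20.2% lower among all tested rows. With the table factors 4 were higher and 12 lower, with a median of -0.46, beside 9.39% and 35.5% of all rows.
The cleavage stimulation factor binds the GU-rich element downstream of the cut and contacts CPSF. Its subunit Cstf3 was at 20.4, 19.6 and 20.6 FPKM in WT samples against 55.7, 51.7 and 61.0 in Pabpn1-null samples. This was 2.78-fold higher, far beyond the spread of the samples (log2 change 1.43 ± 0.14 SE, limma adjusted p = 8.92e-05), and held with the table factors (0.89, adjusted p = 0.00416). Cstf1 rose by 1.18 on the log2 scale and by 0.65 with the table factors (limma adjusted p = 0.0245). Cstf2t rose by 0.60, a call lost without any 1 sample other than WT replicate 2 (limma adjusted p of 0.0635 to 0.125), after quantile normalization (0.0861) and without the filter (0.113), and was at 0.07 with the table factors. Cstf2 had a log2 change of 0.44 that did not pass (-0.08 with the table factors), and that was 0.11 without WT replicate 3 and 0.69 without WT replicate 2.
Clp1, the kinase of cleavage factor II, and Sympk, the symplekin scaffold that holds the CPSF3 and CPSF2 pair, rose by 0.87 and 0.76 on the log2 scale as deposited (0.35 and 0.37 with the table factors, limma adjusted p = 0.194 and 0.211). Sympk was at 1.45, 1.21 and 1.97 FPKM in WT samples against 3.06, 3.23 and 3.56 in Pabpn1-null samples, without overlap. Pcf11 of cleavage factor II and the scaffold gene Rbbp6 had log2 changes of -0.32 and -0.15, which did not pass, and -0.76 and -0.65 with the table factors, where Pcf11 passed (limma adjusted p = 0.0433). Rbbp6 was at 0.02 with all totals set equal and at 0.076 without WT replicate 2.
Papola and Papolg, the nuclear poly(A) polymerases, had log2 changes of -0.19 and 0.50, neither past the threshold (limma adjusted p = 0.298 and 0.103). With the table factors Papola passed as lower (-0.73, limma adjusted p = 0.0158), Papolg was at -0.03, and at the same total FPKM Papola was at 0.009. Papolg passed as higher at the same total FPKM (0.69, limma adjusted p = 0.047) and without WT replicate 2 (0.73, 0.0216).
In the phosphatase module, Ppp1cc, Ssu72 and Ppp1cb fell. Ppp1cc, a catalytic subunit of protein phosphatase PP1, was at 22.8, 32.3 and 18.2 FPKM in WT samples against 8.69, 7.62 and 9.81 in Pabpn1-null samples, 35.6% of WT (log2 change -1.36 ± 0.22 SE, limma adjusted p = 9.21e-04, and -1.88 with the table factors). Ssu72, which dephosphorylates the tail of RNA polymerase II, had a log2 change of -0.77 (limma adjusted p = 0.00203) and of -1.32 with the table factors. Ppp1cb, at -0.76 and at -1.28 with the table factors, lost its call as deposited without any 1 Pabpn1-null sample (limma adjusted p of 0.0535 to 0.0795), with all totals set equal (0.0874) and without the filter (0.123). Ppp1ca and Wdr82 had log2 changes of -0.09 and 0.09 that did not pass, and -0.64 and -0.46 with the table factors, where Ppp1ca passed (limma adjusted p = 0.0124). Ppp1ca was at 0.10 with all totals set equal and at 0.013 without WT replicate 1, and Wdr82 was at -0.077 without WT replicate 3 and at -0.032 without Pabpn1-null replicate 2.
Pabpn1l, the oocyte relative of Pabpn1, was at 509, 376 and 500 FPKM in WT samples against 343, 405 and 339 in Pabpn1-null samples, with overlap, and its log2 change of -0.34 did not pass (limma adjusted p = 0.0845). It passed without WT replicate 2 (-0.48, limma adjusted p = 0.0169) and with the table factors (-0.90, adjusted p = 0.00114).

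CPSF3, CPSF2 and symplekin also cut replication-dependent histone transcripts, where the U7 snRNP takes the place of the hexamer. Among the partners of this reaction, Zfp473, a zinc finger protein that binds the U7 snRNP, rose from 15.1, 19.4 and 9.18 FPKM in WT to 115, 103 and 105 FPKM in Pabpn1-null samples. It was the largest rise of the partner genes (log2 change 2.87, and 2.33 with the table factors, limma adjusted p = 3.53e-05 and 7.82e-05). Slbp, the stem-loop binding protein, and the U7 proteins Lsm10 and Lsm11 fell by 0.395, 0.40 and 0.55 on the log2 scale as deposited (limma adjusted p = 0.0260, 0.0406 and 0.0480) and by 0.95, 0.96 and 0.99 with the table factors. The calls of these 3 as deposited were lost at the same total FPKM (limma adjusted p of 0.0953 to 0.163) and without the filter (0.102 to 0.126). Quantile normalization took Slbp to -0.006 (0.947) and Lsm10 to -0.16 (0.225), whose calls were also lost without the variance trend (0.0728 and 0.0823). Each call was lost without WT replicate 1 or without any 1 Pabpn1-null sample (limma adjusted p of 0.0515 to 0.143). The call of Slbp was also lost without WT replicate 3 (0.0808), as was that of Lsm10 (0.0939), and that of Lsm11 without WT replicate 2 (0.118). Slbp was among the most abundant transcripts, at 1892 ± 250 FPKM in WT samples against 1430 ± 44.5 in Pabpn1-null oocytes (SD, n = 3). Casp8ap2, which encodes FLASH, had a log2 change of 0.23 that did not pass (-0.30 with the table factors).
The Integrator complex, which processes small nuclear RNAs, holds relatives of the nuclease pair. Ints9, the relative of CPSF2, was at 27.7, 22.9 and 39.6 FPKM in WT samples against 85.6, 72.1 and 85.4 in Pabpn1-null samples, and rose 2.70-fold (log2 change 1.43, and 0.89 with the table factors, limma adjusted p = 4.12e-04 and 0.0101). Cpsf3l (Ints11), the relative of CPSF3, was at 12.4, 9.36 and 12.0 FPKM in WT samples against 20.7, 22.0 and 19.8 in Pabpn1-null samples, with a log2 change of 0.84 (limma adjusted p = 0.00278), and did not pass with the table factors (0.32, adjusted p = 0.233).
CPSF also acts in the cytoplasm of oocytes, where CPEB1 recruits it to stored mRNAs. Cpeb1 was at 169, 203 and 122 FPKM in WT samples against 266, 321 and 260 in Pabpn1-null samples, without overlap. Its log2 change of 0.80 passed as deposited (limma adjusted p = 0.00600) and not with the table factors (0.24, adjusted p = 0.401) or without the filter (adjusted p = 0.0695). Papd4 (Tent2), a cytoplasmic poly(A) polymerase, and Cpeb3 had log2 changes of 0.27 and -0.47 that did not pass (limma adjusted p = 0.166 and 0.124), and -0.28 and -0.96 with the table factors, where Cpeb3 passed (adjusted p = 0.0205). Papd4 passed as higher at the same total FPKM (0.46, limma adjusted p = 0.0298), and Cpeb3 as lower after quantile normalization (-0.66, 0.0287) and without WT replicate 3 (-0.65, 0.0405).

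**Figure D4:**
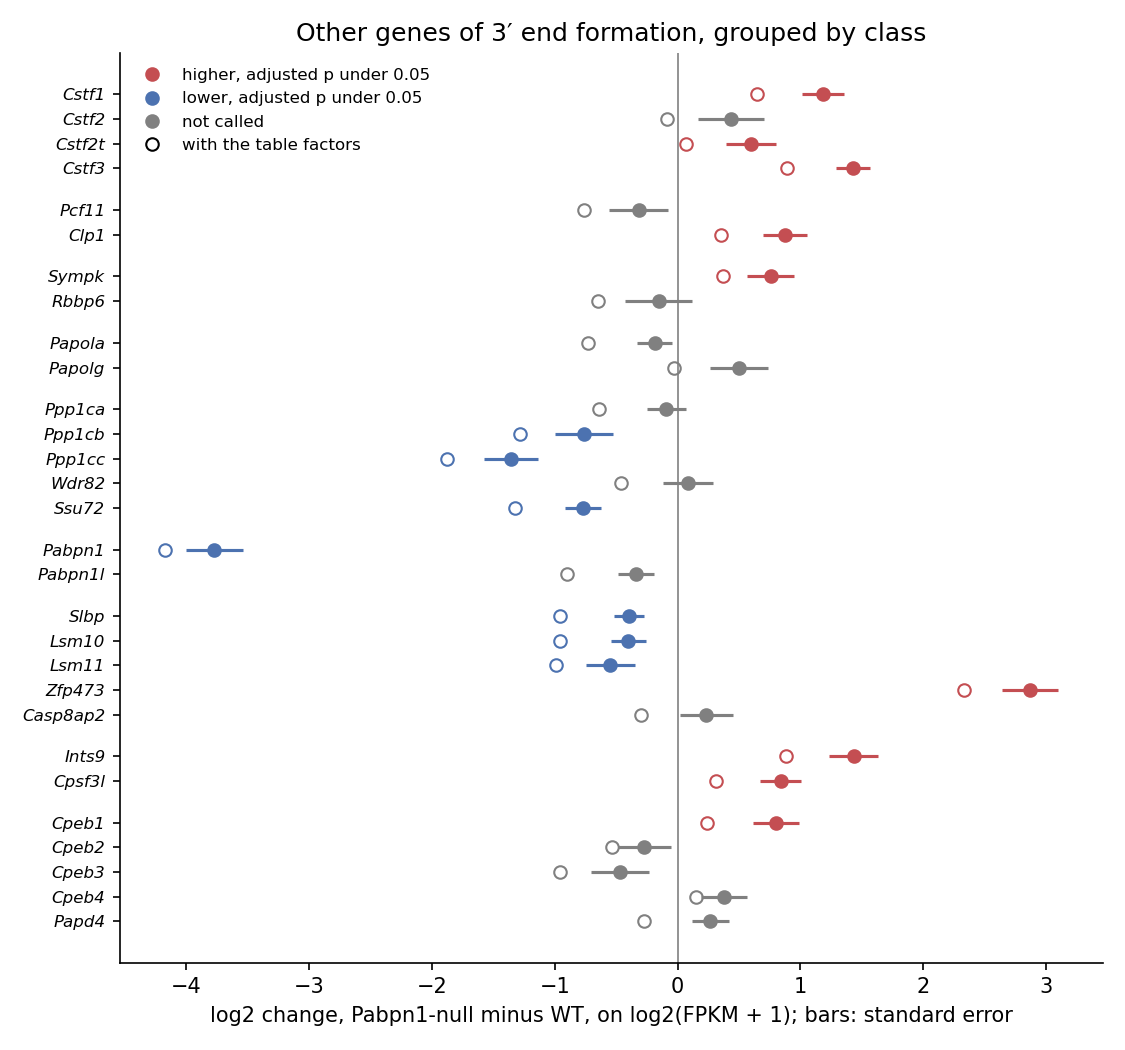
The log2 change (Pabpn1-null minus WT on log2(FPKM + 1), bars are standard errors) of 29 other genes of 3′ end formation, grouped by class, with calls as deposited in red (higher) and blue (lower) and open circles for the values with the table factors. Zfp473, Cstf3, Cstf1 and Ints9 stay above 0 on both scales with an adjusted p under 0.05, and Pabpn1 and Ppp1cc have the lowest values.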

How the data were processed

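Growing oocytes were sequenced as 3 WT and 3 Pabpn1-null samples, and groups were taken from the sample titles. The authors trimmed reads, mapped them to mm9 and ERCC sequences with TopHat2 2.1.1 and quantified unique reads per UCSC gene with Cufflinks 2.2.1. The deposited values are FPKM with 1 added, and 1 was subtracted here. The table holds 0 ERCC rows, and the spike-in scaling that the methods mention is not seen in it. Table factors were estimated by non-negative least squares from 2003 rows of the study's table of changed transcripts, and are not known to be the spike-in factors. Counts per gene are not known, so counting error carries no interval here.

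Rows above 1 FPKM in at least 1 sample (12523) were fitted on log2(FPKM + 1) by limma 3.58.1 under R 4.3.3, using eBayes with a trend, with genotype as the only term and Benjamini-Hochberg adjustment over these rows at 0.05. The fit was tested on simulated data, where it recovered the larger of the folds set in full and the smaller only in part, with somewhat more false calls than the threshold allows. Few rows were changed in that simulation, whereas 48.1% of tested rows were called in the data, so its recovery need not hold for this fit. Ratios within a sample were compared by exact permutation. Coordinates are from GENCODE vM1, and genes that overlap on opposite strands are uncertain. Hexamers other than AATAAA and ATTAAA were added to the search after the ends had been seen. Named are the 10 members, every partner gene called, up to 2 others per class by level, and the 5 rows most like Cpsf4l. The members and lists were chosen with earlier results of these data known. Other scalings, pseudocounts, filters, variance models, a replicate block and leaving out each sample were tried.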

Additional observations from a re-analysis of the deposited data

How the results depend on the processing

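The counts of CPSF and CFI genes called were small and moved with the processing. With 3 higher and 2 lower as deposited, 1 was higher without the filter and 0 with the table factors, and 1 was lower at the same total FPKM, with robust estimation and with the replicate block. Leaving out each sample gave 2 to 3 higher and 1 to 2 lower. Of the partner genes, 9 higher and 7 lower as deposited, 4 were higher and 12 lower with the table factors, 3 were lower without the filter and 3 at the same total FPKM, and leaving out each sample gave 8 to 10 higher and 3 to 7 lower. A pseudocount of 0.1 changed none of these counts or calls, and with a mean of at least 5 FPKM Cpsf1 was not tested. The counts over all fitted rows moved as well. As deposited 3491 were higher and 2535 lower, and without the filter 2681 and 1750 of 23235 rows. They were 4327 and 1778 at the same total FPKM, and 1176 and 4445 with the table factors. Robust estimation gave 3557 and 2614, and the replicate block 3478 and 2528. Leaving out each sample gave 2528 to 3402 higher and 1737 to 2750 lower. The log2 changes that turned with the table factors were those of Fip1l1 (-0.318), Nudt21 (-0.307), Cpsf6 (-0.303), Casp8ap2 (-0.296), Cstf2 (-0.082), Papd4 (-0.275), Papolg (-0.032) and Wdr82 (-0.458). Papola (0.009), Ppp1ca (0.104) and Rbbp6 (0.02) turned at the same total FPKM, and Pabpn1l (0.041) and Wdr82 (-0.045) after quantile normalization, none of them called as deposited. Over the fits that left out 1 sample, Fip1l1 ranged from -0.004 to 0.387, Ppp1ca from -0.24 to 0.013, Rbbp6 from -0.467 to 0.076 (the latter without WT replicate 2) and Wdr82 from -0.077 to 0.287. The log2 difference in the ratio of Cpsf3 to Cpsf2 ranged from -0.354 to 0.336 and was 0.027 with 1 added to both values and 0.055 after quantile normalization, and that of Nudt21 to Cpsf6 + Cpsf7 turned to 0.093 after quantile normalization. The cause of these moves was not tested. Same-numbered samples of the genotypes did not deviate together (correlations of -0.0135, -0.0149 and 0.0598 over the tested rows), so the numbers give no pairing. With the replicate block the calls of Cpsf4, Cpsf1 and Lsm11 were lost (adjusted p = 0.0588, 0.062 and 0.0519 from limma) and Cpsf7 passed (0.0465). The number of reads behind each FPKM is unknown, which limits genes of low level most, such as Cpsf1, Sympk, Pcf11, Lsm11 and Cpsf7.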
